A study of Mus musculus with 36 samples.

Results

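The 10 genes Wwox, Fhit, Immp2l, Macrod2, Lrp1b, Csmd1, Dlg2, Ctnna2, Ptprd and Naaladl2 are among the longest of the mouse genome, and several of them span common fragile sites. Their H3K9me3 peaks in mouse liver are described here. A peak was taken as a member where the nearest annotated start site, as assigned by the authors, belongs to one of the 10 genes. The 6 deposited tables list 2368 such bins among 786789, between 354 and 442 in a table, which is 0.277% to 0.347% of a table's bins.

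H3K9me3, trimethylation of lysine 9 on histone H3, was measured by ChIP-seq of liver tissue, that is by sequencing of crosslinked chromatin pulled down with an antibody to the mark. The 32 ChIP libraries fall into 8 groups of 4: offspring of control dams or of dams with maternal obesity (MO), female or male, at 3 or 8 weeks of age. MO dams ate a Western-style diet and control dams ate chow before and during pregnancy and through lactation; the 3-week offspring were killed before weaning and the 8-week offspring had been on chow since weaning. All groups came from an in-house colony with a floxed Reg3g allele, on a C57BL/6J background, and the offspring were Reg3g fl/+ or fl/fl. Each table pools 8 libraries of 2 groups: control offspring at both ages (the female and the male age table), or MO and control offspring at 1 age (the female and male 3-week and 8-week tables). Each control group thus stands in 2 tables, and the tables of a sex share a peak set. Agreement between tables is therefore not independent evidence. The level of a bin is the authors' average log2 CPM (counts scaled to the size of the library, on a log2 scale) over those 8 libraries. It is not scaled to the width of the bin, so levels of bins of unlike width are not strictly comparable. Because the level is given once per table, the spread between animals is not given and no difference below was tested. Sequencing depth per library is unknown from these tables. Values over the 6 tables follow the order female age, male age, female 3-week, male 3-week, female 8-week and male 8-week.

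H3K9me3 marks compacted, repressed chromatin and is laid down mainly over repeats, retrotransposons and silent gene clusters, where it is read by HP1 proteins. Very long genes are often late replicating, and loci such as those of Wwox and Fhit break under replication stress because replication is completed late across their huge introns. Most of the 10 genes work in neurons, at cell junctions or in tumour suppression rather than in the classical functions of hepatocytes.

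The size in the label held for all 10 genes: among 21910 protein-coding genes, Ptprd ranked 3rd in length (2.27 Mb), Lrp1b 7th (2.06 Mb), Macrod2 8th (2.00 Mb), Dlg2 9th (1.97 Mb) and Csmd1 10th (1.64 Mb). Fhit ranked 12th (1.61 Mb), Naaladl2 22nd (1.35 Mb), Ctnna2 45th (1.10 Mb), Immp2l 69th (0.93 Mb) and Wwox 74th (0.91 Mb). Whether the genes were silent or late replicating in these livers was not measured by this assay. Tables held 102145 to 159357 bins, with median levels between 2.03 and 2.74, and each listed exactly 1 bin of at most about 500 bases for every peak, so that bins and peaks have the same number. Of 8 hepatocyte genes (Alb, Ttr, Apoa1, Apob, Cps1, Tat, Serpina1a and Fgb), between 1 and 4 held a bin in their body in a given table, and none held more than 1. These genes are short, so that 1 bin is 530 per Mb of Apoa1, 107 of Tat, 100 of Serpina1a and 25.5 of Apob, and the mark does not report expression.

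The genomic sequence under the strongest peaks is shown for 7 of the genes as examples of single-copy and of repeated DNA; a gene's strongest bin need not be typical of its bins. For each gene the bin with the highest level in the female age table was taken, and 300 bases from its centre were read from the plus strand of GRCm38. The first 2 are of single-copy DNA: none of the 10 successive pieces of 30 bases in each occurs elsewhere in the genome without a mismatch. Wwox is read from chr8:115150593-115150892, in the last intron, and Naaladl2 from chr3:25151556-25151855, at -7.19 kb from its start, that is upstream. Capitals mark CG dinucleotides, the sites of DNA methylation, of which the Wwox stretch holds 14 and the Naaladl2 stretch 10. CG was present in 98.7% of all bins of the female age table.
Wwox: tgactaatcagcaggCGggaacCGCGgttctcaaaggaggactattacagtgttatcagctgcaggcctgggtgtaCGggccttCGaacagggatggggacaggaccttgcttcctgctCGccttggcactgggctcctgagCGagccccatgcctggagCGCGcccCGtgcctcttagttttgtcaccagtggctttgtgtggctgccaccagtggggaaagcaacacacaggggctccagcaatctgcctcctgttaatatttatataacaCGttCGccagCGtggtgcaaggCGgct
Naaladl2: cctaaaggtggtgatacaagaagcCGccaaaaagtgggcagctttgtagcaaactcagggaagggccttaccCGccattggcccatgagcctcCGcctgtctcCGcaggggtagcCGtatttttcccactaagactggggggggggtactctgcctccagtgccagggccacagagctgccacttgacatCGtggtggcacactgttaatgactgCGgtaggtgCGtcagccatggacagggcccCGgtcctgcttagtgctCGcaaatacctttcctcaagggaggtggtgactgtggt

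The next 3 belong to repeated DNA and resemble each other. Fhit is read from chr14:10517340-10517639 (intron), Ctnna2 from chr6:76728260-76728559 (intergenic) and Csmd1 from chr8:18051869-18052168 (intergenic). The capitals mark a stretch of 28 bases, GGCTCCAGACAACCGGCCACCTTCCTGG, that all 3 hold, Fhit in 2 copies and Csmd1 on the opposite strand. The stretch was searched on both strands and occurs 917 times in the genome. It lay in 0.423% of all bins of the female age table and 0.329% of those of the male one. Besides the 3 bins it was picked from, it lay in a second Csmd1 bin and a Naaladl2 bin in females and in no other member bin in males, so the share of member bins holding it is fixed in part by its choice.
Fhit: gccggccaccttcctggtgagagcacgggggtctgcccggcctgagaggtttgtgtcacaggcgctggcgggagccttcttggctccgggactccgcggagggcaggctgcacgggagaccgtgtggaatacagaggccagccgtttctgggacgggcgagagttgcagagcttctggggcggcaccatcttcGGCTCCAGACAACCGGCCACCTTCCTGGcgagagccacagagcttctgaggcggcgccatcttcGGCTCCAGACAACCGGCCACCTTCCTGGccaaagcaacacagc
Ctnna2: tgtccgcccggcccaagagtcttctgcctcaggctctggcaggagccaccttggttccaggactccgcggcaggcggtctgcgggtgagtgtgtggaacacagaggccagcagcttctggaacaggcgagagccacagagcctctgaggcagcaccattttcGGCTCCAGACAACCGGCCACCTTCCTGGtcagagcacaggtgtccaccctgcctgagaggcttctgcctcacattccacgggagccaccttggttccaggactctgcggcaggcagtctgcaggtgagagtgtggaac
Csmd1: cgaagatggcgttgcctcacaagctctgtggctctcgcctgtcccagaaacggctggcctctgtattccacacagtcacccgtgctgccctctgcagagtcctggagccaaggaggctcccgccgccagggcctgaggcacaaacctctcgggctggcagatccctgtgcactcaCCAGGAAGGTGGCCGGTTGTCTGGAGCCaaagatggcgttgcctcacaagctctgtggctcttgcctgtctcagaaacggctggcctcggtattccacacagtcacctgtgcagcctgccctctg

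The last 2 are of Macrod2 (chr2:140462201-140462500, intron) and Lrp1b (chr2:40020723-40021022, intergenic). They share 48 bases without a mismatch on opposite strands, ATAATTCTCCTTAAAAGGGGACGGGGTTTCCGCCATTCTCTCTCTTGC on the strand of Macrod2, again in capitals. That stretch occurs 35 times in the genome and lay in 21 bins of the female age table, 0.0174% of them. In the male age table it lay in 26 bins (0.0176%), and the strongest Macrod2 and Lrp1b bins there overlap the same sequences and hold it as well.
Macrod2: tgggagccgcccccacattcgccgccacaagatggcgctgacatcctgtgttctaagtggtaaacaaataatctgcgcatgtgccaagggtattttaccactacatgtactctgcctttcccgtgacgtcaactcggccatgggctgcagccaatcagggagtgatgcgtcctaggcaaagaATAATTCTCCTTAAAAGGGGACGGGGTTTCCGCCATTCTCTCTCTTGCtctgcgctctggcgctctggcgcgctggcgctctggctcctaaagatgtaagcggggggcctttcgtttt
Lrp1b: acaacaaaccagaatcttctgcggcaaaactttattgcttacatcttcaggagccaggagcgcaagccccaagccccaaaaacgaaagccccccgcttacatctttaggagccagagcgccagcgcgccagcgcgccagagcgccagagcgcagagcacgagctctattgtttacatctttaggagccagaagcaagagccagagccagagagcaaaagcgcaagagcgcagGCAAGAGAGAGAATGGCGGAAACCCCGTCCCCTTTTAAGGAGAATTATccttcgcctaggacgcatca

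The 30-base pieces of these strongest bins occurred a median of 130 times in the genome for Fhit, 78.5 for Lrp1b, 49 for Macrod2, 28 for Immp2l and 11 for Ptprd. The medians were 1.5 for Csmd1 and 1 for Dlg2 and Ctnna2, where the most frequent pieces had 131, 19 and 254 copies. How the aligner placed reads of such repeated DNA is not given in the sources used here, so the levels of the Fhit, Lrp1b, Macrod2, Immp2l and Ptprd bins are uncertain as to which copy they come from. The same holds in part for Csmd1, Dlg2 and Ctnna2, where 5, 7 and 6 of the 10 pieces occurred only once.

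Peak density separated Wwox from the other 9 genes. Wwox, an oxidoreductase with WW domains that acts as a tumour suppressor, occupies chr8:114439655-115352708 on the plus strand (GRCm38). Its body held 104, 138, 114, 132, 105 and 108 peaks in the 6 tables, or 114, 151, 125, 145, 115 and 118 per Mb. Over all autosomes the tables listed 47.7, 61.5, 55.8, 66.3, 45.7 and 42.3 peaks per Mb. Wwox therefore lay 2.39 times above the autosomal density in the female age table and 2.46 times above it in the male age table, and it was above it in all 6 tables. The other 9 genes together held 170 peaks in 14.93 Mb in the female age table (11.4 per Mb) and 203 in the male age table (13.6 per Mb), 0.239 and 0.221 times the autosomal density. Not 1 of these 9 genes reached the autosomal density in any table, and their highest value was 21.9 per Mb, for Csmd1 in the male 3-week table.

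**Figure D1:**
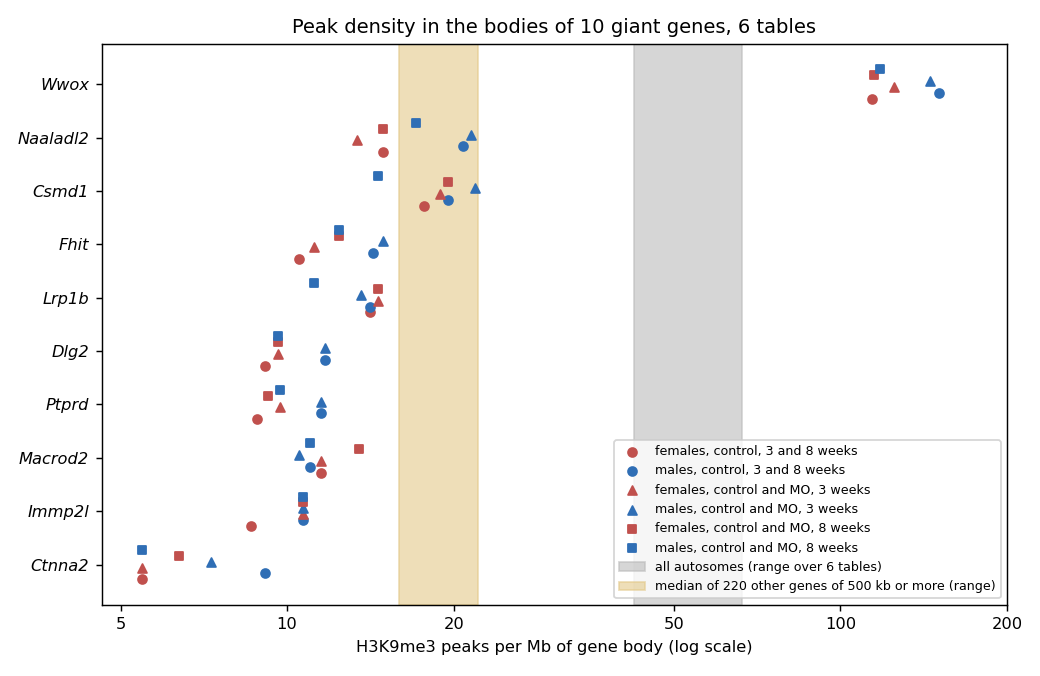
H3K9me3 peaks per Mb of gene body (x axis, log scale) for the 10 genes (rows), with 1 point for each of the 6 tables, each over 8 pooled libraries and so with no error bar. The grey band spans the autosomal density (42.3 to 66.3 per Mb) and the tan band the median of 220 other protein-coding genes of 500 kb or more (15.9 to 22.1 per Mb). Wwox lies right of both bands in all tables and the other 9 genes lie left of the grey band.

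Set beside the 220 other protein-coding genes of 500 kb or more, which had a median of 19.3 peaks per Mb in the female age table and 21.9 in the male age table, Wwox ranked 4th of 230 in females and 5th in males. Its rank ran from 3rd to 7th over the 6 tables, where Csmd2, Camta1, Nav2 and Slit3 were among the 8 densest as well. The remaining members ranked between 108th and 226th. Csmd1 or Naaladl2 was the densest of them in each table (108th to 128th) and Ctnna2 the sparsest (204th to 226th). A list of 20 other long genes of fragile or late-replicating loci or of cell adhesion had a pooled density of 20.1 per Mb in the female and 24.1 in the male age table. In that list Cdh13, a cadherin gene, held the most peaks in every table (89 and 133 in the age tables, 85.5 and 128 per Mb). Cdh13 and Sdk1 were above the autosomal density in all 6 tables. The X-linked Dmd held 36 peaks in the female and 2 in the male age table.

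The nearest start site is not always the gene that holds a bin, so the annotation class of the bins was tabulated. Of all member bins, 61.9% lay in their own gene or its 3 kb promoter in the female age table, 64.3% in the male age table and 61.2% to 64.7% in the others. For Wwox this share was complete: all 87 and all 115 bins of the age tables lay in the gene, 81 and 108 of them in introns and 5 and 4 in promoter windows of its transcripts. Dlg2 (18 of 18 and 23 of 25), Macrod2 (21 of 22 and 20 of 20) and Fhit (9 of 9 and 11 of 12) were nearly so.

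The assignment worked differently for the adhesion gene Ctnna2, an alpha-catenin that ties cadherins to actin. Only 2 of its 31 bins in females and 3 of 31 in males lay in the gene. Of the rest, 25 and 24 were intergenic, and the median distance to the start site was 830 and 721 kb. Ptprd, a receptor tyrosine phosphatase of synapse formation, had 34 of 55 and 40 of 66 intergenic bins, up to 1279 kb away. Lrp1b, a large receptor of the LDL receptor family, had 23 of 52 and 26 of 57, Naaladl2, a peptidase-like protein, 21 of 45 and 21 of 55, and Csmd1, a membrane protein that restrains complement, 15 of 36 and 19 of 44. Over all bins 39.5% and 38% were intergenic.

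**Figure D2:**
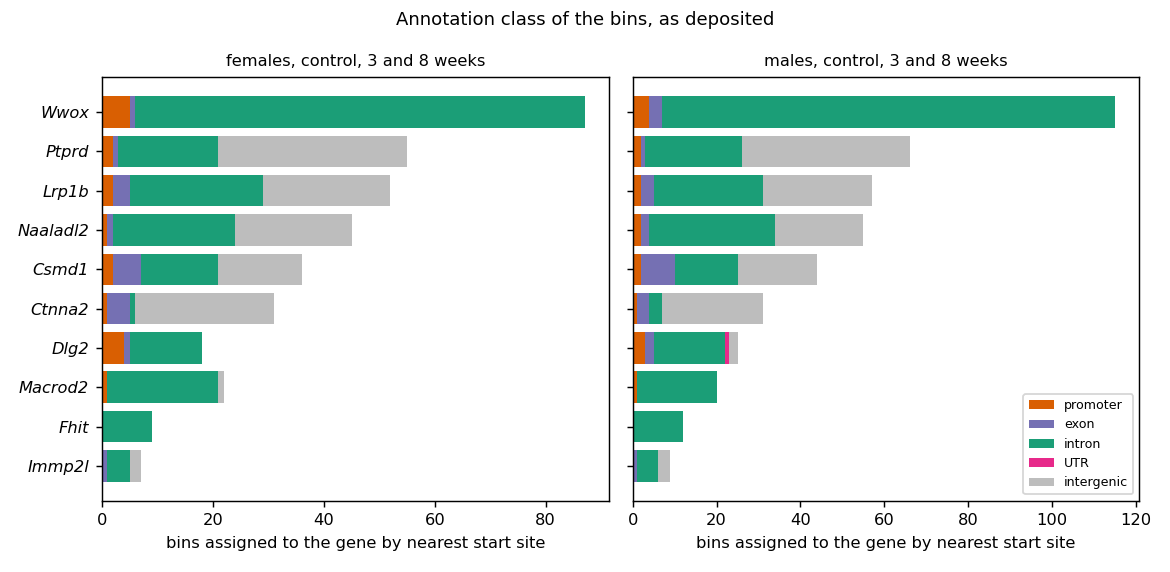
Number of bins assigned to each gene by nearest start site (x axis), split by the deposited annotation class, in the female (left) and male (right) age tables of control offspring. Intronic bins make up nearly all of Wwox, Macrod2 and Fhit, and intergenic bins most of Ctnna2 and Ptprd.

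In the opposite direction, some peaks inside a member's body were assigned to a neighbour. At the 3′ end of Wwox, 17 and 23 peaks of the age tables were nearest to Maf, a transcription factor gene. Within Csmd1 13 and 14 peaks went to Mir3106, within Fhit 8 and 12 to Fhitos or Mnd1-ps, within Immp2l 4 and 5 to Lrrn3, and within Ctnna2 4 and 7 to 6330415B21Rik or Lrrtm1. Counting by gene body therefore nearly doubled Fhit, from 9 and 12 bins to 17 and 23, and reduced Ctnna2 from 31 to 6 and 10.

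Along Wwox, most peaks lay in the last and longest intron. Intron 8, at chr8:114712252-115351637 (639.4 kb, 70% of the body), held 72 of 104 peaks in the female age table and 97 of 138 in the male one, that is 69.2% and 70.3%. It held 67.4% to 76.9% in the other tables. Intron 5 (190.8 kb, 20.9% of the body) held 16 and 24 peaks, 15.4% and 17.4%. Intron 4, with 40.56 kb and 4.44% of the body, held 9 and 5 peaks (8.65% and 3.62%) that covered 48.7% and 45.4% of its length. In steps of 100 kb from the start, the first step held 17 to 23 peaks in the 6 tables. The second step held 9, 8, 10, 12, 6 and 1 and the third step 6, 9, 7, 10, 3 and 3, fewest in the 8-week tables. Each step from 300 to 900 kb held 11 to 18. Peaks covered 25.1% and 32% of the Wwox body in the age tables, against 0.424% to 1.16% and 0.522% to 1.19% for the other genes. In the flanks of 1 Mb on each side of Wwox the density was 33 and 45.5 per Mb, below that of its body and below the autosomal value in those tables.

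**Figure D3:**
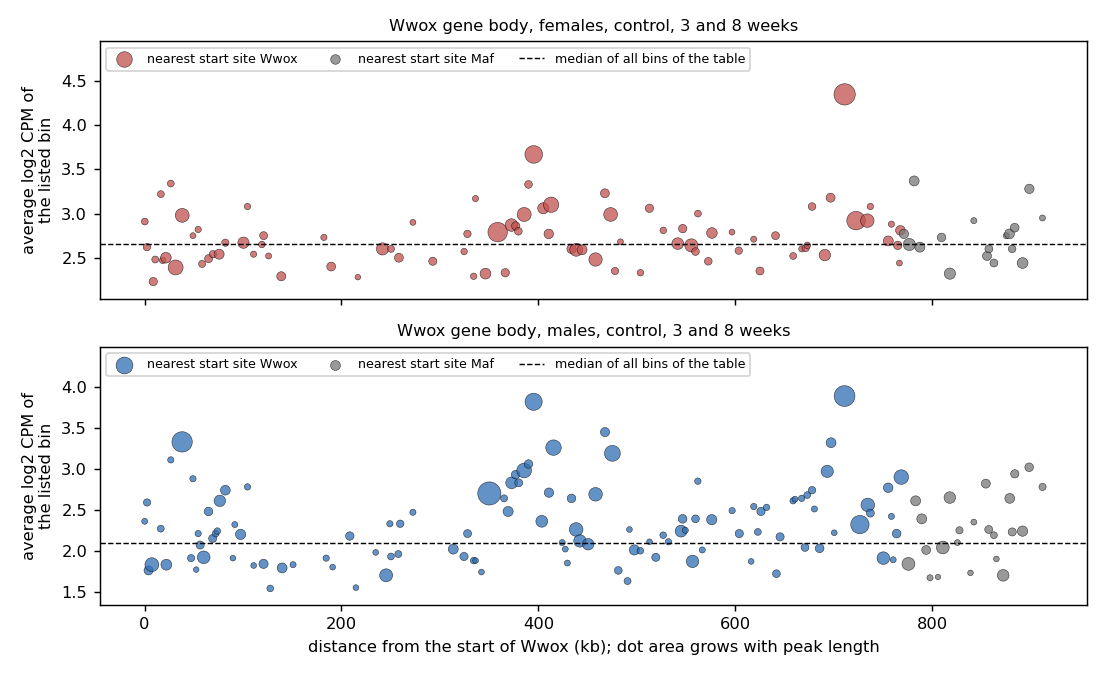
Peaks inside the Wwox body in the female (top) and male (bottom) age tables, by distance from the gene's start in kb (x axis) and authors' average log2 CPM of the listed bin (y axis). Dot area grows with peak length, grey dots are bins nearest to Maf, and the dashed line is the median of all bins (2.65 in females and 2.10 in males). The strongest bins of both sexes lie about 395 and 711 kb from the start.

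Peaks at Wwox were also longer. Their median length was 1263 and 1200 bases in the age tables, against 818 and 805 over all peaks and 466 and 435 at the other 9 genes. At least 5 kb was reached by 11 of 87 and 13 of 115 Wwox peaks (12.6% and 11.3%, against 5.31% and 4.37% of all peaks) and by 0 of 275 and 0 of 319 peaks of the other 9 genes. The longest reached 14556 bases in females and 17342 in males. The longest peaks of the other genes were of Immp2l in males (3698 bases) and Naaladl2 in females (3540 bases).

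The strongest Wwox bin was at the same place in both sexes, chr8:115150492-115150992 with a level of 4.35 in the female age table and chr8:115150423-115150923 with 3.89 in the male one. Both bins are at the 99.9th percentile of their table and lie in intron 8, inside peaks of 14556 and 13844 bases. The same peaks were listed at 2.34, 2.62, 3.15 and 3.07 in the female 3-week, male 3-week, female 8-week and male 8-week tables. For a peak of many bins these values can belong to different bins of the peak, since each table lists a bin of its own choosing. A second place, 395 kb from the start, had 3.67 in females and 3.82 in males, and 2.24, 1.96, 2.42 and 3.28 in the other tables in the same order. The top 10% of the female age table held 9 of 87 Wwox bins (10.3%), and that of the male one 31 of 115 (27%). At the other 9 genes these were 59 of 275 (21.5%) and 78 of 319 (24.5%). In the female 3-week, male 3-week, female 8-week and male 8-week tables the share of Wwox bins was 4.04%, 6.19%, 8.05% and 17.4%, against 22.5%, 27.7%, 18.5% and 18.7% at the others, so that Wwox was above them in the male age table only.

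Levels at the other fragile-site genes rested on few bins. Fhit, a hydrolase of dinucleotide polyphosphates that is lost in many tumours, occupies chr14:9550092-11162035 on the minus strand. It had 9, 12, 11, 12, 11 and 11 bins by nearest start site, with median levels of 2.61, 2.26, 2.36, 2.39, 2.53 and 3.04. Its medians lay below the table's median in the 3 female tables (by -0.05, -0.04 and -0.10) and above it in the 3 male tables (by 0.16, 0.36 and 0.30). Immp2l, a subunit of the mitochondrial inner membrane peptidase, occupies chr12:41024090-41955588 on the plus strand and had 7, 9, 9, 9, 8 and 8 bins. The strongest, in an intron 204 kb from the nearest start site, had 3.67 in the female and 3.58 in the male age table, in peaks of 3195 and 3698 bases. Macrod2, which removes ADP-ribose from proteins, occupies chr2:140395309-142392966 on the plus strand and had 22, 20, 22, 20, 24 and 19 bins. Its strongest bin, in intron 3, was at the same place in both sexes, with 3.50 in females and 3.09 in males.

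Lrp1b (chr2:40595246-42653624, minus strand) had 52, 57, 54, 58, 54 and 47 bins. Their median lay above the table's median in all 6 tables, by 0.15, 0.29, 0.19, 0.26, 0.24 and 0.27. The strongest Lrp1b bin lay 594 kb from the nearest start site, outside the gene, in both sexes, with 3.62 in females and 3.32 in males. Csmd1 (chr8:15892537-17535586, minus strand) had 36, 44, 36, 45, 39 and 29 bins, and its strongest bin lay at -516 kb from its start, upstream, in both sexes (3.69 and 3.15). Naaladl2 (chr3:23798102-25144261, minus strand) had 45, 55, 44, 58, 47 and 48 bins and held the highest level of all members in 4 of the 6 tables: 3.80, 3.20, 4.22 and 4.72 in the 3-week and 8-week tables. In the age tables its highest bins had 4.25, below Wwox, and 3.56, below Wwox and Immp2l. The female maximum, at -7.19 kb from its start, had 4.25, 3.80 and 2.64 in the female tables and 2.22, 1.75 and 4.72 in the male ones, as far as the listed bin of that peak goes. An intronic Naaladl2 peak of 621 bases in females varied less, with 3.92, 3.51, 3.50, 3.16, 4.22 and 3.95 in the 6 tables.

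Among the adhesion and synapse genes, Ptprd (chr4:75941238-78211961, minus strand) had 55, 66, 66, 70, 64 and 56 bins, whose median lay above the table's median by 0.19, 0.24, 0.12, 0.25, 0.16 and 0.23. Its strongest bin differed between the sexes. In females it lay at -1016 kb from the start (3.54) and in males in intron 11 (3.33). Ctnna2 (chr6:76881637-77979699, minus strand) had 31, 31, 32, 32, 31 and 24 bins, the strongest 174 kb from the nearest start site and outside the gene in both sexes (3.65 and 2.90). Dlg2, a scaffold of the postsynaptic density (chr7:90476672-92449247, plus strand), had 18, 25, 19, 25, 19 and 20 bins. Its strongest bins, in intron 4 in females (3.40) and intron 19 in males (2.86), ranked lowest among the maxima of the 10 genes in both sexes.

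**Figure D4:**
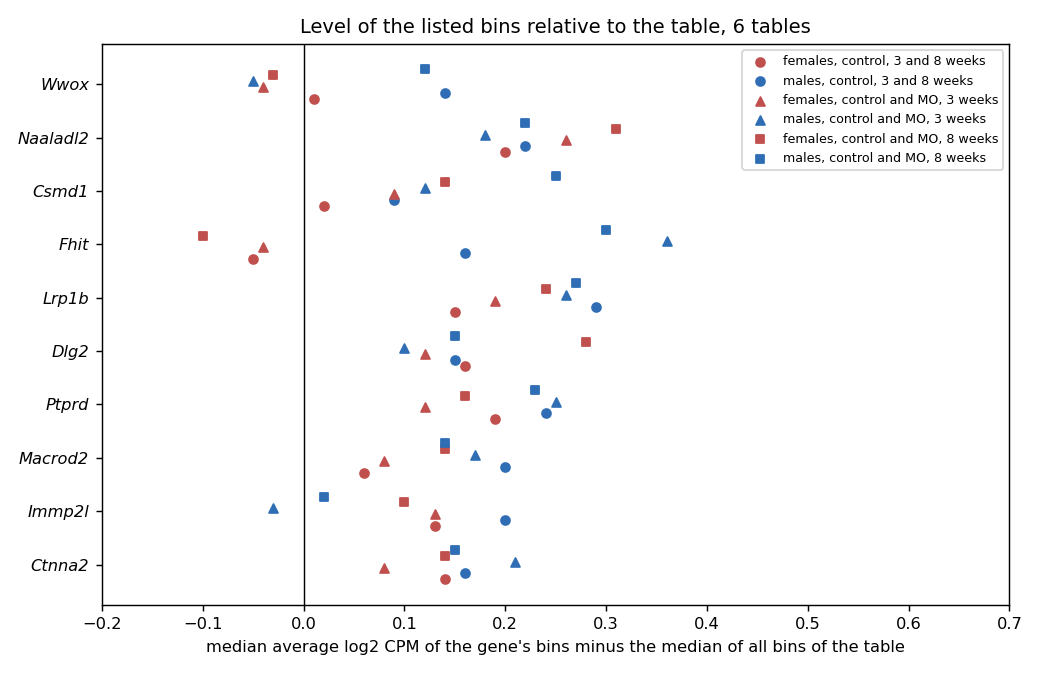
Median level of each gene's bins minus the median of all bins of the same table (x axis, difference in the authors' average log2 CPM), with 1 point for each of the 6 tables and no error bar, since no value per library is given. Lrp1b, Ptprd, Naaladl2, Dlg2, Ctnna2, Macrod2 and Csmd1 lie right of 0 in all 6 tables, while Wwox, Fhit and Immp2l have points on both sides.

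Over all 10 genes the median level exceeded that of all bins by 0.12, 0.21, 0.09, 0.10, 0.13 and 0.18. Between 60.5% and 68.6% of the member bins were above the median of their table, where 50% of all bins are by construction. Without Wwox the difference was 0.15, 0.22, 0.13, 0.21, 0.19 and 0.21. For the bins inside the gene bodies, whatever their symbol, it was smaller in every table: 0.09, 0.15, 0.05, 0.05, 0.11 and 0.14. Between member peaks and all peaks of at most 1 bin it was 0.06, 0.17, 0.05, 0.13, 0.07 and 0.14. That was larger than over all member bins in the male 3-week table and smaller in the others.

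Start sites of several genes carried a peak. A peak covered the annotated start of Ctnna2 in all 6 tables, with levels of 2.89, 2.73, 2.82, 2.61, 2.33 and 3.42. The same held for Ptprd (2.83, 2.29, 2.51, 1.75, 2.86 and 2.61), Naaladl2 (3.12, 2.87, 2.86, 2.52, 3.12 and 3.16) and Csmd1 (2.57, 2.19, 2.54, 2.10, 2.64 and 2.61). Peaks began within 0.072 kb of the start of Macrod2 and within 0.413 kb of that of Lrp1b in all tables. At Wwox the start was covered in the 3 male tables and a peak lay 0.052 kb away in the 3 female tables. The nearest peak to the Fhit start lay 7.6 or 10.1 kb away. At Dlg2 a peak nearest to the neighbouring Tmem126b lay 0.06 kb from the start in the 3 male tables, and 8.51 kb from it in the female 3-week table. In the female age and 8-week tables the nearest peak lay 15.1 kb away and was assigned to Tmem126a. These distances are to the first of several Dlg2 starts. At another, a promoter bin (chr7:91542667-91543101 in females) touched the start, with 3.12 in the female and 2.62 in the male age table, and Dlg2 had 3 or 4 promoter bins in every table. For Immp2l a peak lay 0.075 kb from the start in the female 3-week and 8-week tables, with low levels of 2.03 and 2.37, and 11.2 kb away in the other 4. A peak at a start was common over all genes. Of 32851 promoter windows of RefSeq (250 bases before to 50 after a start), 44% to 47.8% were touched by a peak in a table. The covered starts of members are therefore not read as a trait of these genes.

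RefSeq promoter windows (GRCm38.p6) matched 5 of the 10 genes, in 9 windows. Those of Macrod2 (chr2:140395180-140395479, plus strand) and Ctnna2 (chr6:77979618-77979917, minus strand) were touched by a peak in all 6 tables. Those of Immp2l (chr12:41023840-41024139, plus strand) and Fhit (chr14:11161986-11162285, minus strand) were touched in none. They are shown 5′ to 3′ along the gene with CG in capitals, a dinucleotide present in 94.6% of all such windows with a median of 7. Macrod2 has 33, Ctnna2 38, Immp2l 32 and Fhit 12, so that windows rich in CG were found both touched and not touched by a peak, although a peak lay 0.026 kb from the Immp2l window in the female 3-week and 8-week tables. All 3 windows of Dlg2, with 1 to 3 CG, were without a peak.
Macrod2: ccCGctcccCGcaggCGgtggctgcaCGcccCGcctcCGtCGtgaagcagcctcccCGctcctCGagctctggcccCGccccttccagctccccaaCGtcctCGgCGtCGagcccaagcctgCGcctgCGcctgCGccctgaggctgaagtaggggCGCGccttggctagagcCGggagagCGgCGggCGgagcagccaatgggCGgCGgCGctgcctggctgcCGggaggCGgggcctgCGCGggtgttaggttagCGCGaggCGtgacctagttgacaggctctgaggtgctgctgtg
Ctnna2: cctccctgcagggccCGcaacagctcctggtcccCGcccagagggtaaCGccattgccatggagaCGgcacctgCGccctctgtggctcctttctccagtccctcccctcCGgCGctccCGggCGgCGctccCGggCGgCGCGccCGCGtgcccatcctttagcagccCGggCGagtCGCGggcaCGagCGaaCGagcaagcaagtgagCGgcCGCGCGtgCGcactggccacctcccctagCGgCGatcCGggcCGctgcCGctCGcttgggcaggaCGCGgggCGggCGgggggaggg
Immp2l: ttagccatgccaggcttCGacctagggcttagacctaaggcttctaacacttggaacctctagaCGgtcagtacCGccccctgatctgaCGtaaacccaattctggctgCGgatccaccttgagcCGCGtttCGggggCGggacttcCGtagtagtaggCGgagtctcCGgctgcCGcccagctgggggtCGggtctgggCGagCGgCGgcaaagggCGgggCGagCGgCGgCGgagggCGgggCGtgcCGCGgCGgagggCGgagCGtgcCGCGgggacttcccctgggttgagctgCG
Fhit: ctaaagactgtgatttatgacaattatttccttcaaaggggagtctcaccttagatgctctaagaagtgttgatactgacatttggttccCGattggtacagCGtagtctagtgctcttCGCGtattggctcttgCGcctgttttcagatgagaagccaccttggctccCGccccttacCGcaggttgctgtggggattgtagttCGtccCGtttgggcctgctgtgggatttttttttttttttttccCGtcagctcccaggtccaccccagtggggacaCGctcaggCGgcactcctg

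Base composition of the bins was set beside that of the gene bodies, although a share of the bins, and nearly all of those of Ctnna2, lie outside their gene. Member bins had a median GC content of 54.1% in the female and 53.7% in the male age table, close to the 54.3% and 53.9% of all bins. The bodies of the 10 genes, in windows of 500 bases, had a median of 38.4%, and the bins inside the bodies, whatever their symbol, had 53.7% and 53.2%. Each gene's bins had a higher median GC than its body in both tables, from 52.1% against 46.2% for Wwox to 56% against 36.6% for Ptprd in females. Wwox had the highest GC content of the 10 bodies (45.8%, against 36.4% to 40.3%) and the most CG per 100 bases (1.42, against 0.483 to 0.633). Among the members the gene with the most peaks per Mb was thus also the one richest in GC; the part of base composition in the density was not tested.

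In the reference, repeats are soft-masked. The median bin of Wwox was masked over 10.6% of its bases in females and 9.38% in males, close to all bins (12.8% and 12.3%). At the other 9 genes it was 69.1% and 69.5%, against 16.8% to 25.4% in the 500-base windows of their bodies. Immp2l in females, with 7 bins, was the exception among them (16.1% against 19.6% of its body). Of the bins that lie inside those 9 bodies, whatever their symbol, the median was 50.6% and 59.1%, and of those inside Wwox 11.7% and 9.73%. Inside the body the Csmd1 median was 24.8% and 13.1%, the lowest of the 9 in males. More than 50% of the bases were masked in 3 of 87 and 8 of 115 Wwox bins, against 39 of 55 and 47 of 66 for Ptprd, 29 of 45 and 36 of 55 for Naaladl2 and 21 of 31 and 23 of 31 for Ctnna2. Csmd1 differed between the tables, with medians of 81% in females and 36% in males. The sequences of Fhit, Ctnna2, Csmd1, Macrod2 and Lrp1b shown above, masked over 91.3% to 100% of the 300 bases, and that of Wwox, masked over 0%, are examples of both kinds. That of Naaladl2, masked over 13.7%, is unlike the median bin of its gene (71.8% in females).

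**Figure D5:**
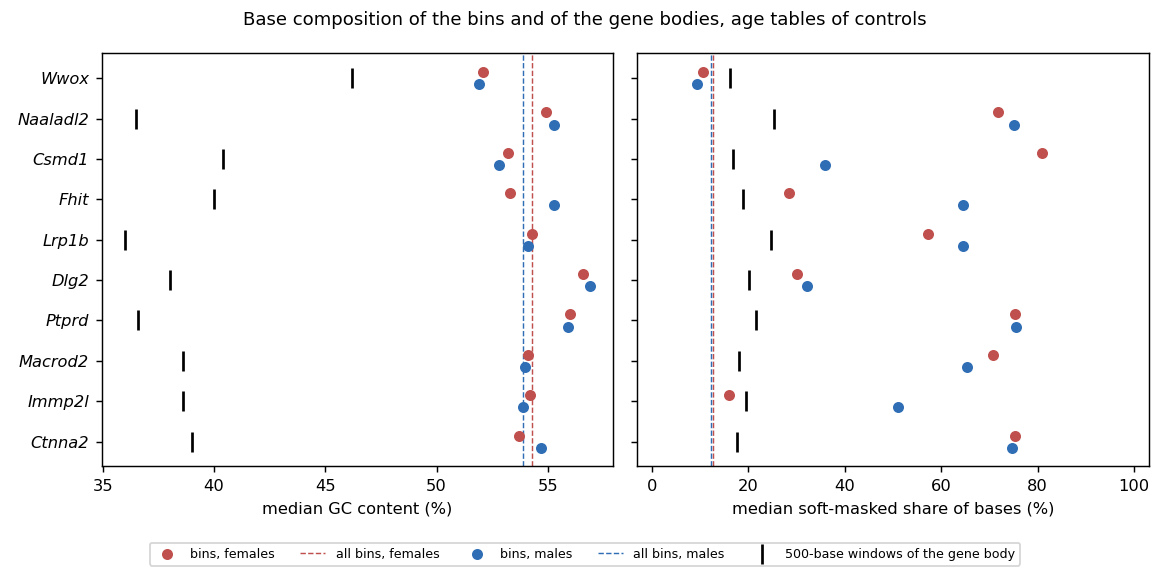
Median GC content (left) and median soft-masked share of bases (right) of each gene's bins, taken by nearest start site, in the female and male age tables (points), of all bins of those tables (dashed lines) and of 500-base windows of the gene bodies (black ticks). All genes' bins lie to the right of their body in GC, and only Wwox lies left of its body in masked share in both sexes.

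Peaks were compared between the sexes in the age tables of control offspring, whose peak sets were built separately by sex. Of 362 female member bins, 243 (67.1%) overlapped a male bin over at least 50% of the shorter bin, and 243 of 434 male bins (56%) overlapped a female one. Over all bins the shares were 48.9% of the female and 39.8% of the male bins. When whole peaks were compared, 302 female peaks (83.4%) met a male peak, against 76.4% over all peaks, and 300 male peaks (69.1%) met a female peak, against 63.9%. Wwox had the lowest share by bins (45 of 87 and 45 of 115, 51.7% and 39.1%) while by whole peaks 78 of 87 female peaks (89.7%) met a male one, and 74 of 115 male peaks (64.3%) a female one. The female share was the highest of the 10 genes, and the male share was close to that of all peaks and below that of 7 of the other 9. Wwox peaks without a shared bin had a median length of 1658 bases in females against 910 for the others. Ptprd shared 47 of 55 female bins (85.5%), the highest share by bins.

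Within a sex, the 3-week and 8-week tables come from different animals but from the same peak set. In females 276 member bins were listed at both ages, 70.4% of the 392 at 3 weeks and 71.9% of the 384 at 8 weeks, against 54.7% and 65.9% over all bins. In males 277 were, 62.7% of 442 and 78.2% of 354, against 43.4% and 67.6%. Each table lists 1 bin of a peak, so that long peaks more often count as not shared, and member peaks were shorter than all peaks (medians of 536 and 813 bases in the female 3-week table). By whole peaks the shares were 84.7% and 86.5% of the female 3-week and 8-week member peaks, against 73% and 88.1% of all peaks, and 74.7% and 93.2% in males, against 60.7% and 94.7%. The member share was thus above that of all peaks at 3 weeks and slightly below it at 8 weeks. In males the whole table listed 159357 peaks at 3 weeks and 102145 at 8 weeks, the Wwox body 132 and 108, the Csmd1 body 36 and 24, and the Ptprd body 26 and 22. Of the female age table's 362 member peaks, 250 (69.1%) had a counterpart in all 6 tables, against 55.5% of all peaks of that table, the X chromosome included. Of the male age table's 434 these were 250 (57.6%), against 45.7% of all. Tables share control libraries, so presence in all 6 is not independent from table to table. By gene the female ones were 63 of Wwox, 43 of Ptprd, 34 of Naaladl2, 33 of Lrp1b, 20 of Csmd1, 19 of Ctnna2, 15 of Macrod2, 13 of Dlg2, 6 of Fhit and 4 of Immp2l. Their median level was 2.87, against 2.56 for the member peaks missing from at least 1 table, and over all peaks of the table these were 2.75 and 2.56.

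Bins with identical coordinates at both ages allowed levels to be set side by side, although the authors scaled the tables separately and the values are over MO and control libraries together. In females the member bins had a median of 2.57 at 3 weeks and 2.88 at 8 weeks, with a median difference of 0.29 per bin, against 0.23 over all 76657 such bins. In males the median difference was 0.69, against 0.63 over all 69096. The median difference of Wwox was 0.13 over its 47 female bins, of which 23 lay above the median of all bins, and 0.74 over its 50 male bins, of which 34 did. Above all bins in both sexes were Csmd1 (0.41 and 0.74), Naaladl2 (0.38 and 0.68), Fhit (0.33 and 0.68, over 8 and 9 bins), Dlg2 (0.31 and 0.76) and Ptprd (0.29 and 0.71). The male excess was only 0.04 for Naaladl2 and 0.05 for Fhit. Lrp1b (0.27 and 0.60), Immp2l (0.34 and 0.55, over 5 and 6 bins) and Ctnna2 (0.32 and 0.63) were above all bins in females but not in males. Macrod2 (0.21 and 0.64) was within 0.02 of all bins. No spread between animals is given for these differences, and none was tested.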

How the data were processed

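Following the paper's methods, sequencing reads of H3K9me3 ChIP from liver were mapped by the authors to mm10/GRCm38 with the Burrows-Wheeler Aligner. Broad peaks were found per library with MACS2, blacklisted regions were left out, and reproducible peaks were merged over groups for each sex on its own. Peaks above 500 bases were cut into bins, in which reads were counted with featureCounts and which were annotated with ChIPseeker.

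The deposited level of a bin is the authors' average log2 CPM over the 8 libraries of a table. The other deposited values are the authors' own comparisons (log2 fold change, p-value and FDR), which were not used here. No count and no depth per library was analysed here, so no test, interval between animals or comparison of MO with control was made, and levels of different tables, scaled separately by the authors, are only set side by side. The input libraries were not used here.

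Members were bins whose nearest start site belongs to 1 of the 10 genes. The members and gene lists were chosen with earlier results of these data known. All 10 genes are named, with the strongest bin of each sex and the peak nearest the annotated start, and sequences are shown for 7 of the strongest bins. Gene bodies came from GENCODE M21 (GRCm38), a bin being inside where its middle is, and sequence, GC content and soft-masking from GRCm38.p6 of RefSeq. Shared bins overlapped over at least 50% of the shorter. All listed bins lay within the chromosome lengths of that build. Functions were tested on simulated intervals. Python 3.11.15, numpy 2.4.6, pandas 2.3.3, scipy 1.17.1 and matplotlib 3.10.9 were used.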

Additional observations from a re-analysis of the deposited data

How the results depend on the processing

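No result below has a test, a replicate or a value per library, so leaving out a library was not possible, and depth limits could not be set. No paired analysis was possible because the tables hold no values per library. Of the 106 alternatives, 56 kept the value within margins of 1.5 times for a count or ratio and otherwise of the 95% interval of the share or median over bins, which does not cover the spread between animals. Whether a repeated sequence was assigned to its true copy cannot be seen in the tables.

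In the order female age, male age, female 3-week, male 3-week, female 8-week, male 8-week table, keeping peaks of at most 1 bin left 163, 229, 181, 234, 182 and 181 member bins. Keeping bins above the table's median level left 233, 237, 277 and 251 (female age, female 3-week, male 3-week, female 8-week), and merging within 10 kb left 287 places in the male age and 293 in the male 3-week table. The share in the own gene was 57% for bins above the median level in the male 3-week table.

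The median level difference without Wwox became 0.13 (female 3-week), 0.21 (male 3-week) and 0.19 (female 8-week). It was 0.07 with single-bin peaks in the female 8-week table, 0.07 with intronic bins in the male 3-week table, and 0.05 (male 3-week) and 0.14 (male 8-week) inside the gene bodies.

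Against other genes of at least 500 kb the density ratio of Wwox rose to 3.89 and 4.16 (female and male age table) and against the 20 other long genes to 5.68 and 6.26. For the 9 other genes it was 0.389 and 0.374, and 0.568 and 0.563, and with the nearest start site 0.386 and 0.347.

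Sharing between the sexes was 72.1% of female bins with an overlap of 1 base, 83.4% and 69.1% of female and male bins as whole peaks, and 0% with identical coordinates in both sexes, since the peak sets were built separately. With 1 base, sharing between ages was 74.7% (female 3-week), 76.3% (female 8-week) and 83.6% (male 8-week). By whole peaks, an alternative chosen after seeing the data, it was 84.7% and 86.5% (female 3-week and 8-week) and 74.7% and 93.2% (male). Against windows of the gene bodies, GC content of the member bins was higher by 15.7 and 15.3 percentage points, where against all bins it differed by -0.2 and -0.233, and the masked share by 25 in males. Between intronic bins the masked share was higher by 15 and 22.9 percentage points, and GC content differed by 0.147 and -0.0777. With the bins inside the gene bodies, also chosen after seeing the data, the masked share was higher than that of all bins by 7.39 and 9.99 percentage points, and GC content differed by -0.732 in males.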
